A study of Mus musculus with 8 samples.

Results

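The genes described here are the expressed Zfp zinc finger genes of mouse Neuro2A (N2A) neuroblastoma cells. They are the genes with a symbol made of Zfp and a number, without Zfp36, that were listed at all 4 time points. Their mean level was at least 2 FPKM over the 8 libraries. FPKM is a fragment count divided by transcript length in kilobases and by a measure of library size, here with upper-quartile normalization. Of 16974 genes listed at 1 or more time points, 326 had such a symbol, 313 of these were listed at all 4, and 223 passed the floor on the level. The other 90 were under the floor, and 13 were not listed at every time point. The members were thus chosen by their measured mean FPKM, so that being expressed is a property of the choice and not a result. The mean over both treatments was used, and 222 of the 223 genes reached 2 FPKM in the mean of the 4 DMSO libraries alone and 222 in that of the 4 HU210 libraries alone. Just under the floor were Zfp772, Zfp966 and Zfp599 with a mean of 1.92, 1.93 and 1.98 FPKM, and just above it Zfp995, Zfp667 and Zfp974 with 2.02, 2.05 and 2.13 FPKM.

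N2A cells were starved of serum for 16 h and then received either 2 µM HU210, an agonist of the cannabinoid 1 receptor, or the DMSO vehicle without drug, and RNA was collected at 4 time points, 2 to 8 h later at steps of 2 h. Each of the 8 conditions was a single library, made from mRNA that had been pooled from 2 to 3 independent experiments, so that no difference at a single time point has a replicate check. Starvation was shared by all 8 libraries, and the cells are an established tumour line and not neurons. Of 13 markers of neuroblastoma and neurons, 9 were listed at all 4 time points. Among them the noradrenergic factors Phox2a and Hand2 had a mean of 41.1 and 84.8 FPKM. The noradrenergic enzyme genes Dbh and Th had a mean of only 1.14 and 2.00 FPKM. The cytoskeletal genes Tubb3, Nefl and Nefm were among those not listed at all 4 time points. Of 7 markers of other cells, 4 were listed at all 4 time points, the highest being the endothelial marker Pecam1 with a mean of 1.04 FPKM. Cnr1, the gene of the receptor, had 15.5 to 27.9 FPKM. A lower FPKM can reflect fewer transcripts of a gene in each cell or fewer cells that express it, and these cannot be told apart in bulk RNA. The study gives the reads sequenced per library, but the values used here do not hold the number of fragments behind the FPKM of each gene.

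Most Zfp genes encode proteins with C2H2 fingers, in which a pair of cysteines and a pair of histidines hold a zinc ion and the residues between them can contact DNA. Many also carry a KRAB (Krüppel-associated box) domain, which recruits the corepressor Trim28 and, through it, the histone methyltransferase Setdb1 and heterochromatin proteins. KRAB zinc finger genes lie in tandem clusters and are known for the silencing of transposable elements and the protection of imprinted methylation, whereas the Zfp proteins without KRAB have mixed roles as activators, RNA-binding proteins, ubiquitin ligases and ribosome factors.

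A search of the proteins translated from the GENCODE coding sequences found 116 genes with C2H2 fingers and a KRAB box, 93 with C2H2 fingers and no KRAB box, and 14 with fewer than 2 C2H2 matches. The median number of C2H2 matches was 10 over all 223 genes, 11 with KRAB and 9 without, and the highest was 33, in Zfp462. The assignment was uncertain for 3 genes whose KRAB score, the number of 22 conserved positions that match, was 9 to 11, where 12 was required. The finger is a unit of 28 codons, 84 bases, with its linker. The unit is shown here for Zfp91 and Zfp467, the genes with the largest decrease and the largest increase, with the codons of the paired cysteines and histidines in capitals. Both are read from mm9 in the direction of transcription, from the minus strand. The first is the second of 2 fingers of the regular spacing in Zfp91, in exon 11 of 11 (chr19:12844955-12845038), and the other is the first of 12 in Zfp467, in exon 5 of 5 (chr6:48389149-48389232).
Zfp91 finger: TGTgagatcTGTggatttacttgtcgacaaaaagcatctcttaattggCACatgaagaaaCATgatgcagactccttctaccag
Zfp467 finger: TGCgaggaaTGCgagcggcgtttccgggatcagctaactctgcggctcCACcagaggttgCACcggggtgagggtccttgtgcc

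The Zfp genes were expressed at low to moderate levels. The median of their mean FPKM was 6.51, against 14.2 over the 10432 genes listed at all 4 time points with a mean of at least 2 FPKM, which are called all genes here. A total of 166 Zfp genes had a mean under 10 FPKM, 44 had 10 to 20 FPKM, and 13 had at least 20 FPKM. In 18 genes, 1 or more libraries lay under 2 FPKM, and the lowest value was 1.25 FPKM, in Zfp600. KRAB genes had a median of 4.74 FPKM, genes with C2H2 fingers and no KRAB 7.96 FPKM, and genes with fewer than 2 C2H2 matches 14.5 FPKM.

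The highest level was that of Zfp207 (BuGZ), which binds microtubules and loads spindle checkpoint proteins onto kinetochores. Zfp207 had 86.7, 81.2, 90.1 and 70.8 FPKM with DMSO and 102.0, 101.8, 93.7 and 75.9 FPKM with HU210 at 2, 4, 6 and 8 h. The HU210 library was the higher one at each time point, with log2 changes of 0.23, 0.32, 0.06 and 0.10, but the value with HU210 at 8 h lay inside the range of the DMSO libraries. A log2 change here is the log2 ratio of the HU210 value to the DMSO value after 1 was added to both FPKM, and it comes out too small for genes of low level. Next in order were Zfp664, Zfp706, Zfp740 and Zfp146, with a mean of 41.3, 39.8, 32.7 and 32.4 FPKM. Zfp664 and Zfp706 had 39.5 to 43.8 and 37.1 to 42.8 FPKM with DMSO, and Zfp740 and Zfp146 had 31.2 to 35.9 and 29.9 to 36.7 FPKM, so that within each of these pairs the levels overlapped.

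The first question of the design was whether a gene differed between HU210 and DMSO at a time point. Of the 892 values of 223 genes at 4 time points, 7 passed 1.5-fold, in 6 genes. These 6 genes were 2.69% of the Zfp genes, while 14.2% of all genes, and 13.9% of genes with a mean of 2 to 20 FPKM, passed 1.5-fold at 1 or more time points. At 2 h no Zfp gene was higher and 2 were lower by 1.5-fold, where 0.393% and 1.41% of all genes were. At 4 h none was higher and 3 were lower, against 2.89% and 8.97% of all genes. At 6 h 2 were higher and none was lower, against 1.67% and 0.508%, and at 8 h none was higher or lower, against 1.03% and 0.479%. At the lower fold of 1.3, 175 of the 223 genes (78.5%) stayed within the limit at all 4 time points, and 64.6% of all genes did.

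**Figure D1:**
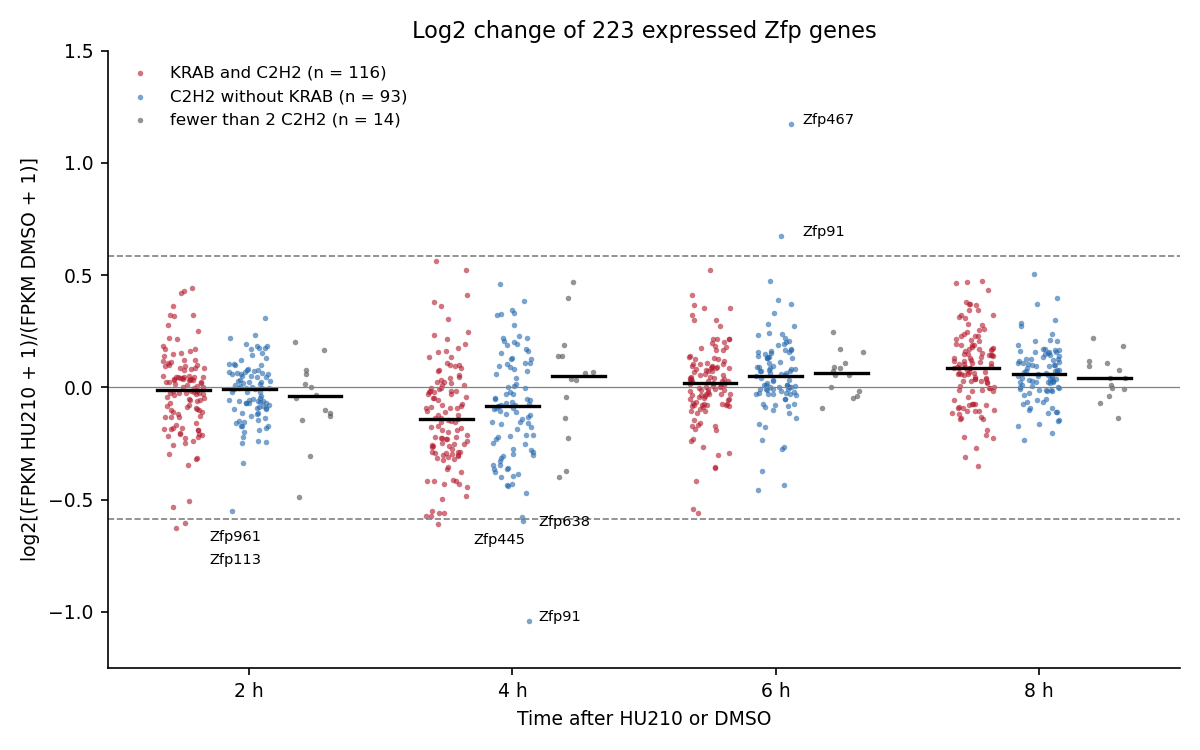
Log2 change between the HU210 and the DMSO library (y axis) for each of the 223 Zfp genes at 2, 4, 6 and 8 h (x axis), colored by protein class, with 1 point per gene, the median of each class as a black bar and 1.5-fold as dashed lines. The 7 values past 1.5-fold are named, with Zfp91 below the line at 4 h and above it at 6 h.

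Zfp91, a ubiquitin ligase of the noncanonical NF-kappaB pathway, was the only Zfp gene past 1.5-fold at more than 1 time point. Its FPKM was 9.62, 13.6, 6.82 and 7.42 with DMSO and 8.10, 6.10, 11.5 and 10.1 with HU210 at 2, 4, 6 and 8 h. The HU210 value was below DMSO at 2 h and 4 h and above it at 6 h and 8 h, and both treatments varied over time, the DMSO library of 4 h being the highest of the 8. The log2 changes were -0.22, -1.04, 0.68 and 0.40. Zfp91 also had the second widest range over the DMSO libraries, 0.90 on the log2(FPKM + 1) scale, and 3 of its 4 HU210 values lay inside that range. Relative to the average DMSO library the log2 changes were -0.14, -0.50, 0.31 and 0.14, all under 1.5-fold, and after the dependence on GC content and transcript length was taken out the change at 6 h was 0.58, just under it. Zfp91 lies on the minus strand of chromosome 19 from 12838150 to 12870616, and 8.43% of its exonic bases are also exons of Cntf on the same strand. Cntf, a neurotrophic cytokine, had 0.92 to 1.76 FPKM, and how reads of the shared bases were divided was not tested.

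Zfp467, a factor of adipocyte and osteoblast differentiation in marrow stroma, had the largest increase. It had 10.5, 6.56, 6.94 and 7.31 FPKM with DMSO and 6.81, 8.89, 16.9 and 8.58 FPKM with HU210. Only the HU210 value of 6 h lay outside the DMSO range, and the DMSO library of 2 h was higher than each of the other 3. The log2 changes were -0.55, 0.39, 1.17 and 0.20. The increase at 6 h was 1.04 relative to the average DMSO library and 1.16 after the dependence on GC content and transcript length was taken out, so it passed 1.5-fold in each case. Zfp467 is on the minus strand of chromosome 6 from 48377696 to 48395824.

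The other 4 genes past 1.5-fold were each lower with HU210 at a single time point. Zfp113, a KRAB gene, had 9.83 to 10.6 FPKM in the DMSO libraries and 6.00, 11.4, 12.02 and 11.6 FPKM with HU210, and its log2 changes were -0.63, 0.10, 0.21 and 0.19. Its DMSO values were close together and all 4 HU210 values lay outside them, below at 2 h and above from 4 h on. Zfp961, also a KRAB gene, had 13.7, 14.6, 9.72 and 11.7 FPKM with DMSO and 8.64, 9.64, 11.0 and 9.28 FPKM with HU210, with log2 changes of -0.61, -0.55, 0.17 and -0.31. Neither gene passed 1.5-fold at 2 h with the pairs of libraries centred on the median ratio (-0.58 and -0.55) or after the dependence on GC content and transcript length was taken out (-0.57 and -0.53). Relative to the average DMSO library Zfp113 still passed it, with -0.67, and Zfp961 did not, with -0.46. Zfp445, a KRAB protein that keeps the methylation of imprinted regions, had 12.1, 15.6, 11.8 and 11.1 FPKM with DMSO and 12.8, 9.88, 11.1 and 11.3 FPKM with HU210. Zfp638, an RNA- and DNA-binding nuclear protein that silences unintegrated retroviral DNA, had 17.2, 21.9, 19.2 and 18.4 FPKM with DMSO and 18.1, 14.2, 21.5 and 20.2 FPKM with HU210. For Zfp445 and Zfp638 the DMSO library of 4 h was the highest of the 8 and the HU210 library of 4 h the lowest. Their log2 changes at 4 h were -0.61 and -0.60, which became -0.52 and -0.51 with pairs centred, -0.31 and -0.41 relative to the average DMSO library and -0.33 and -0.17 after the dependence on GC content and transcript length was taken out.

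**Figure D2:**
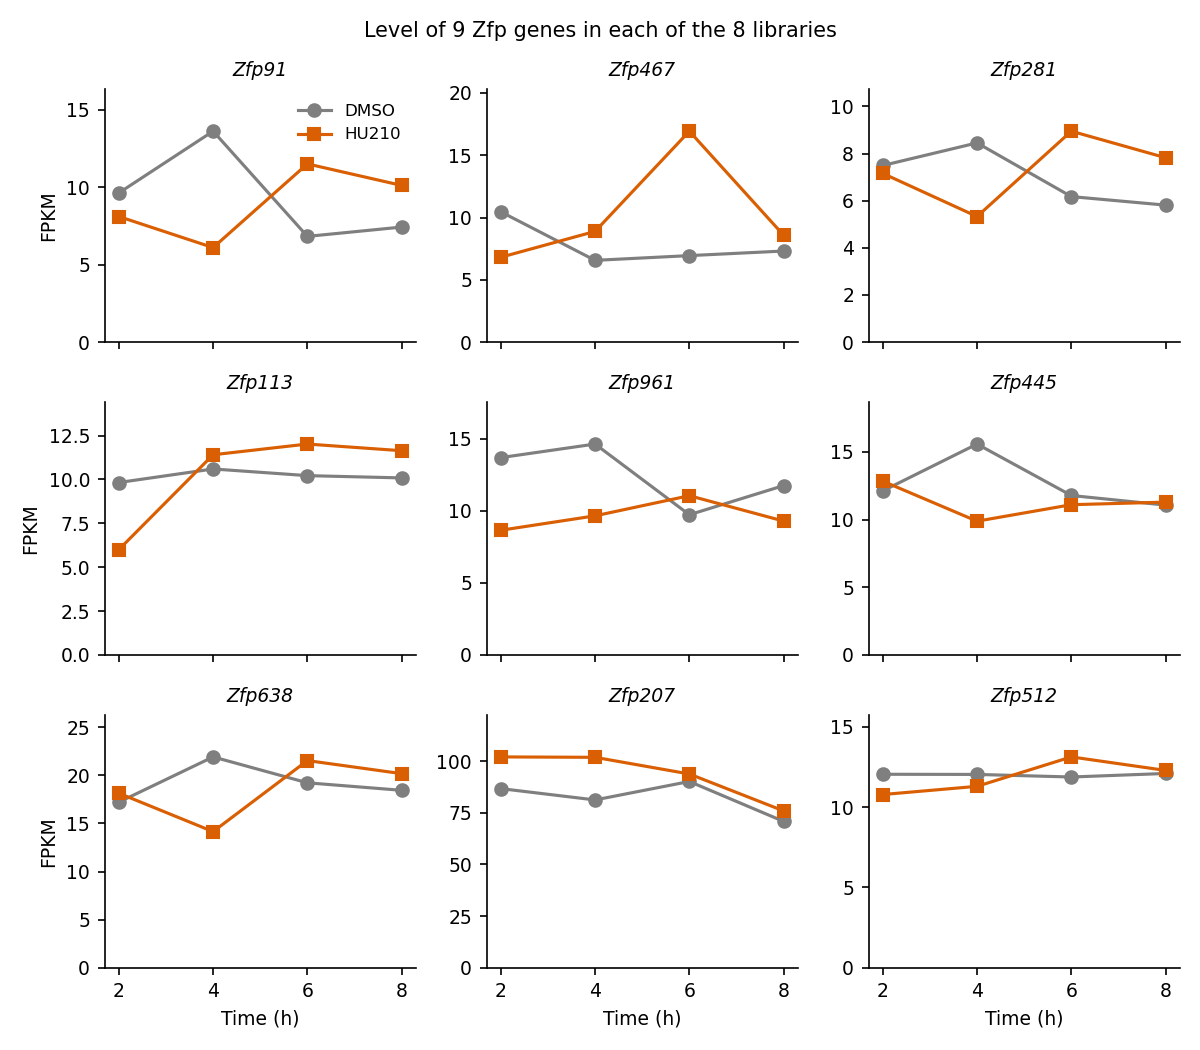
FPKM (y axis, from 0) of 9 Zfp genes against time in hours (x axis), with 1 point per library and lines that join the libraries of DMSO (grey circles) and HU210 (orange squares). The lines of Zfp91 cross between 4 h and 6 h, Zfp467 has 1 high point at 6 h, and the DMSO values of Zfp512 lie between 11.9 and 12.1 FPKM.

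Among the genes that did not pass 1.5-fold, the largest increases at 2 h were those of the KRAB genes Zfp985, Zfp600 and Zfp949, with log2 changes of 0.44, 0.43 and 0.42. At 4 h the largest increases were in Zfp94 (0.56), Zfp534 (0.52) and Zfp593 (0.47), the last a small protein of ribosome assembly. The lowest values at 6 h were those of Zfp931 (-0.56), Zfp534 (-0.54) and Zfp523 (-0.46), and at 8 h the range went from -0.35 in Zfp738 to 0.51 in Zfp414. The DMSO library set the direction in some of these genes. Zfp534 had 3.51, 1.304, 4.20 and 3.02 FPKM with DMSO and 2.31 to 2.57 FPKM with HU210, so that all 4 HU210 values lay inside the DMSO range. Zfp414 had 10.3 FPKM with DMSO at 8 h and 13.0 to 15.0 FPKM in the other 7 libraries. Exons of Gm20507 on the same strand cover 29.2% of the exonic bases of Zfp414. Exons of E130218I03Rik on the opposite strand cover 77.9% of those of Zfp593. How reads of the overlapping bases were divided was not tested.

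As a group the Zfp genes moved little. Their median log2 changes at 2, 4, 6 and 8 h were -0.0064, -0.095, 0.030 and 0.071, while the medians over all genes were -0.053, -0.084, 0.065 and 0.045. At 2 h, 105 of 223 Zfp genes were higher with HU210 (47.1%, all genes 35.5%), at 4 h 72 (32.3%, all genes 41.1%), at 6 h 134 (60.1%, all genes 66.3%) and at 8 h 159 (71.3%, all genes 62.8%). These directions depend on the scaling. With each pair of libraries centred on the median ratio of all genes, the medians were 0.046, -0.011, -0.035 and 0.026, and 134, 104, 91 and 128 Zfp genes (60.1%, 46.6%, 40.8% and 57.4%) were higher, so that the sign turned at 2 h and 6 h. The median deviation of a library from the mean of the DMSO libraries, over the Zfp genes, was -0.016, 0.053, 0.0051 and -0.041 in the DMSO libraries and -0.030, -0.061, 0.047 and 0.034 in the HU210 libraries. The shift between libraries without the drug was thus of the same size as that between treatments. The HU210 value was lower at 2 h and 4 h and higher at 6 h and 8 h in 45 Zfp genes (20.2%, all genes 25.8%), and the reverse held in 6 (2.69%, all genes 5.20%). In 11 Zfp genes (4.93%) HU210 was higher at all 4 time points and in 11 it was lower at all 4, against 4.45% and 3.29% of all genes.

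The protein classes differed most at 4 h. The median log2 change at 4 h was -0.14 for KRAB genes, of which 85 of 116 were lower, -0.085 for C2H2 genes without KRAB, of which 61 of 93 were lower, and 0.050 for the 14 genes with fewer than 2 C2H2 matches, of which 5 were lower. At 2 h the 3 medians were -0.0098, -0.0053 and -0.040, at 6 h 0.017, 0.050 and 0.064, and at 8 h 0.088, 0.061 and 0.041. The 3 classes also differed in base composition, with a median GC content of the longest coding transcript of 43.0%, 51.3% and 50.5%, and 50.4% over all genes. At 4 h the log2 change and the GC content had a Spearman correlation of 0.41 across the 223 Zfp genes and of 0.54 across 9841 of all genes, where genes share a library and are not independent. At 2, 6 and 8 h the correlation was -0.12, 0.028 and -0.21 in the Zfp genes and 0.17, -0.31 and -0.16 in all genes. The Zfp genes thus did not follow the trend of all genes at 2 h and 6 h. In the 35 Zfp genes with a GC content of up to 40%, the median log2 change at 4 h was -0.22, and in the 14 above 60% it was 0.097. All genes had medians of -0.35 and 0.16 in the same ranges. After the dependence on GC content and transcript length over all genes was taken out, the median of the Zfp genes at 4 h was 0.050, and that of KRAB genes 0.085, so that the direction at 4 h turned, and 133 of 223 Zfp genes (59.6%) were then higher. The part of base composition in the difference was not tested beyond these values.

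**Figure D3:**
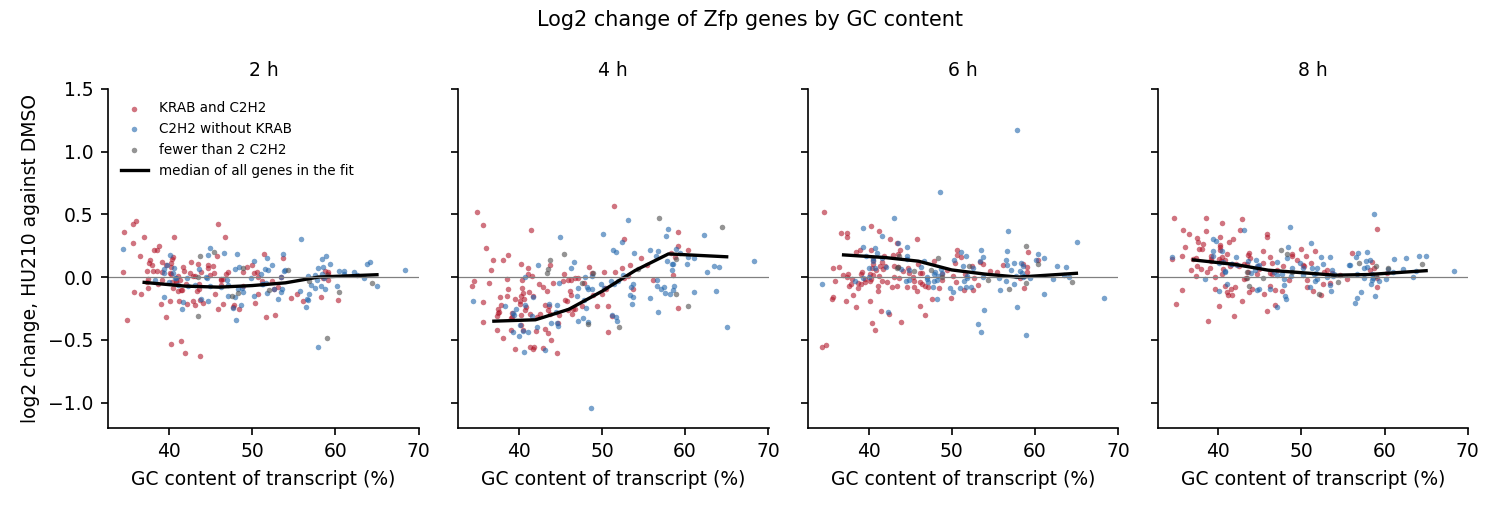
Log2 change (y axis) against the GC content of the longest coding transcript in percent (x axis) for the 223 Zfp genes at 2, 4, 6 and 8 h, with 1 point per gene colored by class and the median of all genes in ranges of GC content as a black line. At 4 h the line climbs from -0.35 to 0.16 and the KRAB genes lie mostly at its left, under 0.

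Spread between libraries without the drug was small for most Zfp genes. The range of log2(FPKM + 1) over the 4 DMSO libraries had a median of 0.259 for the Zfp genes and of 0.332 over all genes. It reached 1.5-fold in 12 Zfp genes (5.38%), and in 15.1% of all genes. The narrowest ranges were those of Zfp512, Zfp335, Zfp324, Zfp93 and Zfp365, from 0.024 to 0.055. Zfp512 had 12.04, 12.03, 11.9 and 12.1 FPKM with DMSO and 10.8, 11.3, 13.1 and 12.3 FPKM with HU210, so that all its HU210 values lay outside a range of 0.024 although the largest log2 change was only -0.15. The number of HU210 libraries outside the DMSO range was 0 in 36 Zfp genes, 1 in 69, 2 in 70, 3 in 33 and 4 in 15, which is 16.1%, 30.9%, 31.4%, 14.8% and 6.73%. Over all genes the shares were 25.1%, 35.0%, 25.3%, 11.2% and 3.39%. The DMSO library of 4 h was the highest of the 4 in 95 of the 223 Zfp genes (42.6%, all genes 38.5%) and that of 8 h the lowest in 78 (35.0%, all genes 25.6%).

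**Figure D4:**
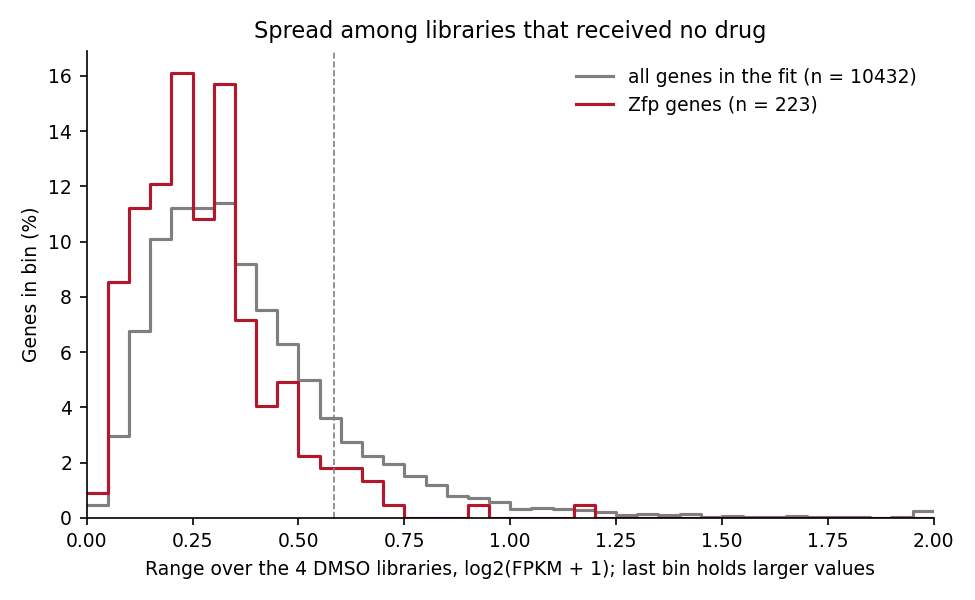
Share of genes in percent (y axis) in bins of 0.05 of the range over the 4 DMSO libraries on the log2(FPKM + 1) scale (x axis), for the 223 Zfp genes (red) and all 10432 genes (grey), with 1.5-fold as a dashed line. The medians are 0.259 and 0.332, and 5.38% and 15.1% of the genes lie at or beyond the dashed line.

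The widest ranges belonged to Zfp534 (1.18), Zfp91 (0.90), Zfp600 (0.71), Zfp979 (0.69) and Zfp971 (0.68), and all but Zfp91 are KRAB genes that share sequence with other genes. The share of a transcript's 50-base words that also occur in transcripts of another protein-coding gene was 0 in 143 Zfp genes and at least 10% in 21, all 21 of them KRAB genes. It was 62.3% in Zfp534, 82.5% in Zfp600, 23.9% in Zfp979 and 39.9% in Zfp971, and it reached 100% in Zfp968. The median range over the DMSO libraries was 0.257 in genes with no shared word, 0.248 in the 59 genes that shared less than 10%, and 0.399 in the 21 that shared at least 10%, and 5 of these 21 reached 1.5-fold. The 21 genes also had a lower level, with a median of 3.19 FPKM. Reads of shared words can be divided between near-identical genes in more than 1 way, so the values of these 21 genes are uncertain, and what the sharing adds to their spread was not tested.

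**Figure D5:**
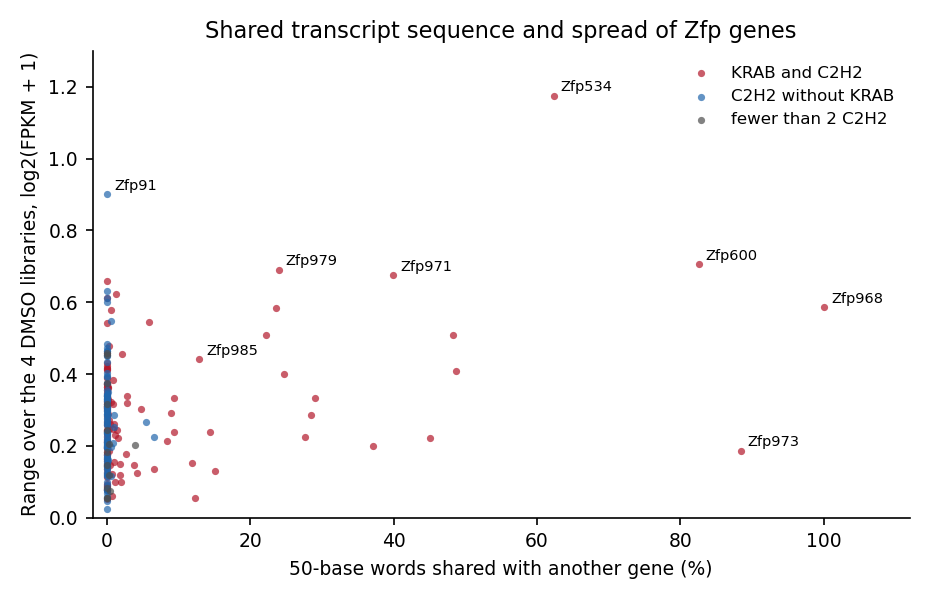
Range over the 4 DMSO libraries on the log2(FPKM + 1) scale (y axis) against the share of 50-base words that also stand in another gene, in percent (x axis), with 1 point for each of the 223 Zfp genes, colored by class. Zfp534 lies highest at 1.18, and Zfp91 is the highest point at a share of 0.

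Zfp534 and 4 other expressed KRAB genes, Zfp985, Zfp979, Zfp984 and Zfp933, lie together on chromosome 4 from 146927386 to 147222475, and Zfp600 lies near them. The finger units of 4 of these genes show how alike the repeats are. The seventh regular finger of Zfp534 was taken because its closest counterparts in the other 3 genes differ from it least. In Zfp534 the capitals mark bases at which 1 or more of the others differ, and in the others the bases that differ from Zfp534. The unit of Zfp979 differs from that of Zfp534 at 9 of 84 bases, that of Zfp985 at 4 and that of Zfp600 at 5. They stand in mm9 at chr4:147049009-147049092 (minus strand, exon 4 of 4 of Zfp534), chr4:146987418-146987501 (minus strand, exon 5 of 5 of Zfp979), chr4:146958175-146958258 (plus strand, exon 6 of 6 of Zfp985) and chr4:146164181-146164264 (plus strand, exon 5 of 5 of Zfp600).
Zfp534 finger: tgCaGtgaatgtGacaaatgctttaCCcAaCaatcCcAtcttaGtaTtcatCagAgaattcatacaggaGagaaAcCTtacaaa
Zfp979 finger: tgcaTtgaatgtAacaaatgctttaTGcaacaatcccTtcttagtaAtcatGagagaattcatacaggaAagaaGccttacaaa
Zfp985 finger: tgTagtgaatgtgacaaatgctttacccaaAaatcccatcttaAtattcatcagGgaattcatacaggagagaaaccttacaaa
Zfp600 finger: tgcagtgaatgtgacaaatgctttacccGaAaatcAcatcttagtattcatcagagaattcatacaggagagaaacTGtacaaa

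Zfp979 had 9.72, 7.87, 7.69 and 5.64 FPKM with DMSO and 12.8, 7.69, 11.5 and 8.24 FPKM with HU210, with log2 changes of 0.36, -0.03, 0.52 and 0.48. It was higher with HU210 at 3 of 4 time points, and the values of both treatments overlapped. Zfp985 had 11.0, 10.4, 14.4 and 11.5 FPKM with DMSO and 15.3, 12.4, 14.1 and 13.7 FPKM with HU210. Exons of Zfp979 overlap those of Zfp534 on the same strand over 2.17% of their bases. In all, 39 of the 223 Zfp genes have exons that overlap exons of another gene, 11 on the same strand and 30 on the opposite one.

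Zfp genes were spread unevenly over the genome, with 61 of the 223 on chromosome 7 and 22 on chromosome 17. There were 12 runs of at least 4 expressed Zfp genes with gaps of at most 500 kb, and they held 83 genes. At 4 h the median log2 change of a run went from -0.30 to 0.16. It was -0.30 in the run of 8 genes on chromosome 17 from 32908181 to 33768724, where all 8 were lower (58.9% of all genes) and 7 are KRAB genes. The GC content there was 39.0% in Zfp101, 40.5% in Zfp472 and 41.2% in Zfp563, but 58.7% in Zfp414. All genes with a GC content of 40 to 44% had a median of -0.34 at 4 h. The part of base composition in the medians of the runs was not tested. The median was 0.16 in the run of 7 genes on chromosome 6 from 47785660 to 48573226, which holds Zfp467 and in which 2 were lower. At 8 h the highest median was 0.24, in the run of Zfp534 on chromosome 4, where 1 of 5 genes was lower (37.2% of all genes). This run holds Zfp534 and Zfp979, whose values are uncertain because 62.3% and 23.9% of their words are shared. The run of 9 KRAB genes on chromosome 17 from 21145905 to 23004101 followed with 0.17, and none of its genes was lower. Neighbouring genes of a run are not replicates of a condition, and these medians were not tested.

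Across the 4 time points, the question was whether HU210 shifted a gene in the same direction. In limma on log2(FPKM + 1) of all 10432 genes, with the time point as a factor, no Zfp gene passed an adjusted p of 0.05 (Benjamini-Hochberg), and 0.0% of all genes did. At an unadjusted p under 0.05 there were 2 Zfp genes, Zfp979 and Zfp369, and 1.18% of all genes. The 2 became 1 without the libraries of 2 h, 6 without those of 4 h and 0 without those of 8 h. Of all 10432 genes, 123 had such a p, which became 60, 357 and 96 in turn. The difference of Zfp979 was 0.33 with a standard error (SE) of 0.11 and an adjusted p of 1.0 in limma, which was 0.879 to 1 over the alternatives. Zfp369, a KRAB gene, had 3.48, 3.80, 3.86 and 3.50 FPKM with DMSO and 2.80, 3.09, 3.32 and 3.18 FPKM with HU210. Its 4 HU210 values lay below all 4 DMSO values, and the difference was -0.19 with an SE of 0.07 (adjusted p = 1.0, limma). Besides Zfp369, the 4 HU210 values of Zfp526 lay below its 4 DMSO values, with 2.54 to 2.75 against 2.76 to 2.92 FPKM and a largest log2 change of -0.09. No Zfp gene had all HU210 values above all DMSO values. Over all genes, 0.326% lay fully below and 0.364% fully above. With libraries exchanged freely, the smallest p that an exact permutation test of 4 against 4 libraries could give is 0.0286. Exchange only within the pair of a time point allows fewer arrangements and could not reach so low a p.

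Late (6 h and 8 h) and early (2 h and 4 h) libraries were compared over both treatments. Again 0 Zfp genes passed an adjusted p of 0.05 in limma (0.0% of all genes), and 10 had an unadjusted p under 0.05, where 7.19% of all genes did. Of these 10, 7 were higher in the late libraries, as were 443 of the 750 among all genes. The 10 became 6 without the libraries of 2 h, 22 without those of 4 h and 1 without those of 8 h. The 750 became 242, 1589 and 353 in turn. The lowest p was that of Zfp423, a partner of early B-cell factors with 27 C2H2 matches, which had 12.8, 13.7, 15.4 and 15.9 FPKM with DMSO and 13.0, 13.0, 17.9 and 16.3 FPKM with HU210. All 4 late values lay above all 4 early ones, with a difference of 0.30 and an SE of 0.07 (adjusted p = 0.525, limma, and 0.201 to 1 over the alternatives). Zfp462, which has the most C2H2 matches and acts in chromatin organization, had 16.0, 18.1, 19.0 and 22.4 FPKM with DMSO and 12.4, 15.1, 19.6 and 20.1 FPKM with HU210, and a difference of 0.39 with an SE of 0.10 (adjusted p = 0.547, limma, and 0.197 to 1 over the alternatives). Next in order of p were Zfp513, lower in the late libraries with a difference of -0.25, and Zfp933 and Zfp532, with 0.24 and 0.21.

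The third test asked whether the difference between HU210 and DMSO itself differed between the late and the early time points. Like the late against early test, it had no factor for the time point. The libraries of 2 h and 4 h thus stood as replicates of each other, as did those of 6 h and 8 h. The SE of both tests holds differences between hours and does not measure the spread of replicate libraries. With limma, 0 Zfp genes passed an adjusted p of 0.05 (0.0% of all genes). An unadjusted p under 0.05 was found in 18 Zfp genes and in 1694 of all genes (16.2%). The late effect was the higher one in 16 of the 18 and in 1507 of the 1694. Zfp91 was first, with a difference of effects of 1.17 and an SE of 0.25 (adjusted p = 0.169, limma, and 0.0559 to 0.920 over the alternatives). Without the libraries of 2, 4, 6 and 8 h in turn, the difference of effects of Zfp91 was 1.58, 0.76, 1.03 and 1.31. These fits leave 1 library per treatment on the early or the late side. Zfp281, a zinc finger factor of pluripotent cells, had 7.50, 8.46, 6.18 and 5.81 FPKM with DMSO and 7.16, 5.33, 8.95 and 7.83 FPKM with HU210. Its log2 changes were -0.06, -0.58, 0.47 and 0.37, and the difference of effects was 0.74 with an SE of 0.20 (adjusted p = 0.178, limma, and 0.0613 to 0.924 over the alternatives). Zfp597 (0.79) and Zfp157 (0.62) went the same way, and Zfp523 the opposite way with -0.50, from 0.17 and 0.23 at 2 h and 4 h to -0.46 and -0.15 at 6 h and 8 h. Exons of genes on the opposite strand cover 24.2% of the exonic bases of Zfp597, and reads of the overlapping genes may not be told apart.

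Promoters of genes that moved in these ways are shown for their sequence only. RefSeq promoters on GRCm38.p6, from 250 bases before to 50 bases after the start, were found for 185 of the 223 Zfp genes. The motifs searched on both strands were the GC box GGGCGG, the ETS core CCGGAAG, the cAMP response element TGACGTCA and the YY1 core GCCGCCAT. The GC box stood in 45.9% of Zfp promoters, 39.0% of KRAB ones and 35.9% of all 27025 promoters. It stood in 68.2% of the 7833 promoters that matched a gene among all genes. The ETS core stood in 22.2% of the Zfp promoters (20.8% of the 7833), the YY1 core in 7.57% (5.92%) and the cAMP response element in 1.08% (3.57%). The promoters of Zfp91 (chr19:12796074-12796373, minus strand) and Zfp281 (chr1:136624651-136624950, plus strand) are printed because these genes lead the third test, and that of Zfp467 (chr6:48445041-48445340, minus strand) because of its value at 6 h. Capitals mark the matches, which do not overlap. Zfp91 has 1 ETS core and 1 YY1 core, Zfp281 has 4 GC boxes and Zfp467 has 1 GC box, and a match of letters is not shown to be a bound site.
Zfp91 promoter: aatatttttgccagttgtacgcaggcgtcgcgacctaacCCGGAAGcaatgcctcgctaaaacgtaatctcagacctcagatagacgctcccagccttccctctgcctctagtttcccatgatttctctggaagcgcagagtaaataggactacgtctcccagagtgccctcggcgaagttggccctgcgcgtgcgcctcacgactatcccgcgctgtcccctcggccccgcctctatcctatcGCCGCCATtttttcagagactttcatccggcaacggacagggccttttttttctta
Zfp281 promoter: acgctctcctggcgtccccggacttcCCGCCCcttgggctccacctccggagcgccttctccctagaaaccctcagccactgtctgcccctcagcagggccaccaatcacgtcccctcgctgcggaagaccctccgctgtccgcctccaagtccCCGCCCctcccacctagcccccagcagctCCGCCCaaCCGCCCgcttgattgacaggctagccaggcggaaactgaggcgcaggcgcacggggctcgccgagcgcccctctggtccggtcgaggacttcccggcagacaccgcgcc
Zfp467 promoter: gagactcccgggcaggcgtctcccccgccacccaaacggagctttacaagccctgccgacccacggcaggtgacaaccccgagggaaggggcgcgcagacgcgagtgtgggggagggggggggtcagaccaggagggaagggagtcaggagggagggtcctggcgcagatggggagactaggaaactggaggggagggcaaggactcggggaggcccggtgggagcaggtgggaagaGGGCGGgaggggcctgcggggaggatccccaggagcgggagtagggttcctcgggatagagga

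Some Zfp genes of known function, such as Zfp91, Zfp281, Zfp445 and Zfp462, are described above. Those that follow did not pass 1.5-fold at any time point. Among KRAB proteins, Zfp57, which protects imprinted methylation together with Zfp445, had 6.42 to 7.68 FPKM with DMSO and 6.60 to 8.64 FPKM with HU210. Zfp809, which silences murine leukaemia virus in embryonic cells, had 3.41 to 4.71 and 4.09 to 4.72 FPKM, and Zfp568, a repressor of a placental Igf2 promoter, had 9.93 to 11.2 and 10.2 to 11.5 FPKM. Among transcription factors without KRAB, Zfp148, Zfp410, Zfp64 and Zfp143 had log2 changes between -0.38 and 0.18 at all 4 time points, the lowest being that of Zfp148 at 4 h. Zfp410, which acts on the gene of the remodelling helicase Chd4, had 11.5 to 14.1 FPKM with DMSO and 12.03 to 14.0 FPKM with HU210. Zfp335, a factor needed in neural progenitors, had 4.57 to 4.76 FPKM with DMSO and 5.18, 5.35, 4.69 and 4.47 FPKM with HU210. Among the proteins with other roles, Zfp598, a ubiquitin ligase that senses collided ribosomes, had 21.8 to 24.9 FPKM with DMSO and 22.4 to 24.2 FPKM with HU210. Zfp622, a factor of the large ribosomal subunit, had 12.8, 13.8, 10.8 and 8.67 FPKM with DMSO and 12.3, 11.0, 12.5 and 10.7 FPKM with HU210, and the RNA-binding protein Zfp106 had 30.3 to 32.1 and 27.1 to 31.96 FPKM. The corepressor Zfp703 had 2.23 to 2.35 FPKM with DMSO and 2.01, 1.86, 2.47 and 2.42 FPKM with HU210. Zfp451, a SUMO ligase, had its largest log2 change at 4 h, -0.44.

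The proteins with which KRAB zinc finger proteins act were taken from a list of 22 genes, of which 21 were listed at all 4 time points. At 4 h, 1 of the 21 was higher and 2 were lower by 1.5-fold, together 14.3% against 11.9% of all genes, and at the other time points none was. Trim28, which binds the KRAB box, had 450.4, 309, 499 and 388 FPKM with DMSO and 467, 497, 415 and 354 FPKM with HU210. Its log2 change at 4 h was 0.68, where the DMSO library was the lowest of the 8, and relative to the average DMSO library it was 0.29. The histone methyltransferase Setdb1 had 21.2 to 23.3 FPKM with DMSO and 20.3 to 21.9 FPKM with HU210. Cbx5, a heterochromatin protein, had 92.1 FPKM with DMSO and 51.3 FPKM with HU210 at 4 h, a log2 change of -0.83, and the deacetylase Hdac2 had 151 and 96.7 FPKM, a log2 change of -0.64. The list had a median GC content of 49.6%, above the 43.0% of the KRAB genes. In limma 0 of the 21 genes passed an adjusted p of 0.05 in any of the 3 tests, and 0, 0 and 7 had an unadjusted p under 0.05, where 1.18%, 7.19% and 16.2% of all genes did.

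Families with C2H2 fingers under other names were set beside the Zfp genes at the same floor. Of 32 Zbtb genes, which join the fingers to a BTB domain, 5 (15.6%) passed 1.5-fold at 1 or more time points. None of 8 Zscan and none of 8 Zkscan genes did. The median log2 changes of the Zbtb genes at 2, 4, 6 and 8 h were 0.0042, -0.069, 0.089 and 0.035, and the median range over the DMSO libraries was 0.286. These counts are descriptions and were not tested against that of the Zfp genes.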

How the data were processed

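RNA-seq libraries of N2A cells treated with HU210 or DMSO for 2, 4, 6 or 8 h were analysed, 1 library for each of the 8 conditions. The authors deposited FPKM values with 1 added, computed by Cuffdiff with upper-quartile normalization and corrections for multireads and fragment bias on Ensembl gene models. The submitters' processing notes name TopHat2 2.0.8, Bowtie2 2.1.0, SAMtools 0.1.7 and mm9. The Cufflinks version and the version of the gene models are not given in the sources used here. The deposited columns of the authors' own fold changes, p-values, q-values and significance calls were not used.

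The added 1 was subtracted to give FPKM, and log2(FPKM + 1) was analysed. Limma 3.58.1 in R 4.3.3 was fitted to all 10432 genes with Benjamini-Hochberg adjustment. The p-values measure only the spread between these libraries. In simulated data of 10432 genes, a log2 change of 1 was set in 200 genes for each test. The 3 tests recovered 200, 200 and 195 genes and called 5, 8 and 8 of 9832 unchanged genes. The simulated noise was independent between libraries, with no shift between time points or libraries and no trend on GC content. These counts check the code and do not measure what the tests could find in the real libraries. Trends on GC content and length were removed by loess with a span of 0.3. Other steps used Python 3.11.15 with pandas 2.3.3 and numpy 2.4.6, and figures matplotlib 3.10.9.

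C2H2 fingers, KRAB boxes, exon positions and shared 50-base words came from GENCODE vM1 on mm9, and promoters from RefSeq on GRCm38.p6. The members and gene lists were chosen with earlier results of these data known. Named genes were taken from the largest increases and decreases at each time point, the highest levels, the widest and narrowest DMSO ranges, the lowest p of each limma test, genes without overlap between treatments, the genes next to the floor and genes of well known function. Alternatives were another pseudocount, fold, floor, reference, scaling and limma prior, no time factor, no trend on GC content and length, and each time point left out. The values of some marker genes are not reported here.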

Additional observations from a re-analysis of the deposited data

Results flagged for a closer look

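Among the 13 Zfp genes that were not listed at every time point, and so entered no comparison, 2 stood above the matching DMSO library by more than 1.5-fold. Zfp26 had 13.6 FPKM with HU210 and 4.66 FPKM with DMSO at 2 h, a log2 change of 1.37. At 4 h it had 15.7 and 14.2 FPKM, so that the DMSO library of 2 h was the low one of its 4 values, and it was not listed at 6 h and 8 h. Zfp980 had 2.03 FPKM with HU210 and 0.36 FPKM with DMSO at 4 h, a log2 change of 1.15, with values of 3.47 and 2.24 FPKM at 2 h and 0.32 and 0.39 FPKM at 6 h. Of the same 13 genes, 2 lay below DMSO by more than 1.5-fold, Zfp426 at 2 h with 6.12 against 11.3 FPKM (log2 change -0.79) and Zfp990 at 4 h with 0.096 against 0.93 FPKM (-0.81). In Zfp26 and Zfp980 the libraries of 1 treatment differed between time points by as much as the treatments did. Groups were single libraries, so that no value could be compared with replicates.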

How the results depend on the processing

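Past 1.5-fold at 2, 4, 6 and 8 h were 1.8%, 11.9%, 2.18% and 1.5% of all genes. At 1.3-fold 139, 965, 670 and 436 of the 10432 were higher and 396, 2139, 153 and 136 lower. Counts of all genes for the other alternatives of the fold are not given here. The number of Zfp genes past 1.5-fold at 2, 4, 6 and 8 h was 2, 3, 2 and 0. It was 5, 15, 4 and 2 with a pseudocount of 0.1, and 9, 34, 11 and 7 at 1.3-fold. It was 0 at 4 h and 1 at 6 h relative to the average DMSO library, 0 at 2 h and 4 at 6 h with pairs centred, 0 at 2 h and 5 at 4 h without the trend on GC content and length, and 5 at 4 h and 1 at 8 h with no floor. The median log2 change was 0.046, -0.011, -0.035 and 0.026 with pairs centred, and 0.050, -0.075 and 0.0054 at 4, 6 and 8 h without the trend. The trend taken out was that of all genes, which the Zfp genes did not follow at 2 h and 6 h. The cause was not tested. An alternative chosen after seeing the data left out genes that share at least 10% of their words. The counts of 2, 3, 2 and 0 stayed as they were, and the medians became -0.018, -0.116, 0.039 and 0.073. Leaving out 21 of 223 genes can move a median only a little, so these values say little about the genes left out. The medians of those 21 genes were 0.096, -0.029, -0.042 and 0.068 at 2, 4, 6 and 8 h. In limma with a pseudocount of 0.1, no floor, libraries centred or limma-trend, 0 Zfp genes passed an adjusted p of 0.05 in any test. The same held for the HU210 test and the late against early test with 1 time point left out. It also held for the HU210 test without the time factor. With no floor, 11, 17 and 32 Zfp genes had an unadjusted p under 0.05 in the 3 limma tests. Of all genes fitted, 533, 1317 and 2131 did. The time point, which pairs the HU210 with the DMSO library, was a factor of the HU210 test, and without it 2 genes had an unadjusted p under 0.05. With 1 library per condition, the spread between replicate libraries of a time point is not known.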
